A study of Mus musculus with 6 samples.

Results

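Dio2, Gprc5b, Dach1, Htr2b, Akap2, Lims2 and Dusp13 are 7 genes, of 16775 in the deposited tables, selected on their read counts. Counts are taken here as scaled to library size with TMM factors. Each gene then had at least 2 times its level with IL4 alone in all 5 libraries of macrophages given a compound with IL4. That ratio is therefore a description here and supports nothing. The cells were bone-marrow-derived macrophages of C57BL/6 mice, made by culture in 10 ng/ml M-CSF, the main macrophage growth factor, over 5 days. Cultures were then kept for 24 hours with IL4 plus fatostatin, IL4 plus betulin, IL4 plus 25-HC, IL4 plus PF429424, IL4 plus 1,10-Phen, or IL4 alone, and each of these 6 treatments gave 1 RNA sequencing library. Every library received IL4, the cytokine of alternative macrophage activation, and none is of untreated cells. The labels give no doses, no vehicle, and neither the age, the sex nor the number of the mice. The labels expand neither 25-HC nor 1,10-Phen. Fatostatin and betulin are known to keep SREBP proteins from being cut into active transcription factors. The series title names SREBP2, a regulator of cholesterol homeostasis, in alternative activation.

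The 7 genes belong to no common pathway. Dio2 encodes the type II iodothyronine deiodinase, a selenoenzyme that converts the prohormone thyroxine into active thyroid hormone inside the cell, and its gene is known to respond to cAMP signalling in tissues such as brown fat. Gprc5b is an orphan receptor of the class C family of G protein-coupled receptors, and Htr2b is a serotonin receptor that signals through Gq proteins. Dach1 encodes a nuclear protein related to the Ski corepressors that works with homeobox factors such as Six4 and with the Eya proteins in development. Akap2 encodes an anchoring protein for protein kinase A, Lims2 encodes PINCH2, a LIM-domain adaptor that binds integrin-linked kinase, and Dusp13 encodes dual-specificity phosphatases best known from skeletal muscle and testis.

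The 250 bases before a RefSeq transcription start are shown for 4 of the genes, the 3 in which a searched set of letters was found and Gprc5b, which held none and whose order of compounds was close to that of Dio2. Capitals mark matches, on either strand, to any of 7 sets of letters that were searched: TGACGTCA and the shorter TGACG it contains (cAMP response element), TGANTCA (AP-1), TTC and GAA parted by any 4 bases (STAT6), CACGTG (E-box), the ACGTG it contains (hypoxia element core) and TATAA (TATA box).
Dio2, chr12:90739039-90739288, minus strand: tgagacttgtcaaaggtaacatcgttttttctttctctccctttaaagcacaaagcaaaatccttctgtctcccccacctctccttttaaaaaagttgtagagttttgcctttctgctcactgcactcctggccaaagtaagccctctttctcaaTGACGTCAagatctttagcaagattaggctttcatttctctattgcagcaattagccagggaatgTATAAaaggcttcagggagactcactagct
Gprc5b, chr7:118995212-118995461, minus strand: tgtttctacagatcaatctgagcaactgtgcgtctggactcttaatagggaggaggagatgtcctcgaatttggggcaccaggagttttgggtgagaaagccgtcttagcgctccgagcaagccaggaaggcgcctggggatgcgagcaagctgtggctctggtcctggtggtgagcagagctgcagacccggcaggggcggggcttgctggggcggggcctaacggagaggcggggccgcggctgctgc
Htr2b, chr1:86111981-86112230, minus strand: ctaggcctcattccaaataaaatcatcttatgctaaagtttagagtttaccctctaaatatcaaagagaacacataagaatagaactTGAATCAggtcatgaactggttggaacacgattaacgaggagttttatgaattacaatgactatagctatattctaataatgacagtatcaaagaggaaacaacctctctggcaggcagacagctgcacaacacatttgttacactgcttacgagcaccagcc
Dusp13, chr14:21748623-21748872, minus strand: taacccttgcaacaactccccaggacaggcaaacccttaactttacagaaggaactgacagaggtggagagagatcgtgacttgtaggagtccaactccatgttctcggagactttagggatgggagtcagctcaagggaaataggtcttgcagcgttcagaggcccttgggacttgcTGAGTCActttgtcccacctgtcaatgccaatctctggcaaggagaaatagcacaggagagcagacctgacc
The sequences are from RefSeq on GRCm38.p6. The Htr2b window lies inside the RefSeq span of that minus-strand gene, which runs to 86116231, so it does not precede the outermost start. The Dusp13 window shown overlaps the outer end of its span, at 21748651. The Dio2 window held the full TGACGTCA, whose first base lies 95 bases before the start, and a TATAA that begins 30 bases before it. TGACGTCA was present in 1.55% of the 32851 windows of the same length in the table and TATAA in 22.8%. Htr2b held TGAATCA and the outermost of the 4 Dusp13 starts held TGAGTCA, both of the AP-1 form that 6.75% of windows held. Another of the Dusp13 starts, not shown, held ACGTG 122 bases and TATAA 236 bases before it, and the windows of the other 2 Dusp13 starts held none of the 7. The Gprc5b window, and that of Dach1, which is not shown, held none of the 7. None of these windows held the STAT6 letters, which 5.85% of all windows held. For the remaining letters the shares of all windows were 17.8% for TGACG, 6.02% for CACGTG and 16.6% for ACGTG. The table had an entry for 5 of the 7 genes and none for Akap2 and Lims2. A match describes letters only, and no binding was measured here.

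The libraries held between 20181420 and 21169698 estimated read counts. Levels are given as CPM, counts scaled to library size with TMM factors, and 3 counts correspond to between 0.137 and 0.161 CPM. The 10 macrophage markers were all detected in every library, with summed levels of 7916 to 12176 CPM in the compound libraries and 11402 CPM with IL4 alone. Single markers varied more than that sum. Mertk was at 11.9 to 105 CPM against 85.2 CPM, and Fcgr1 at 8.19 to 33.3 CPM against 30.3 CPM. Adgre1 was at 394 to 805 CPM against 946 CPM, and Cd14 at 41.5 to 123 CPM against 44.1 CPM. Of the skeletal muscle markers 4 of 8 were in the tables, none reached 1 CPM, and their sum was 0.546 to 0.911 CPM in the compound libraries and 0.652 CPM with IL4 alone. Neutrophil markers summed to 81.2 to 379 CPM against 297 CPM, and endothelial markers to 136 to 238 CPM against 151 CPM, with most of the sum in Vwf (121 to 223 CPM against 120.01 CPM) and Pecam1 (6.65 to 68.6 CPM against 25.4 CPM). Of the other endothelial genes Cdh5 was at 0.273 to 1.18 CPM against 0.419 CPM, Tek never passed 0.0985 CPM, and Esam was at 14.5 CPM with 1,10-Phen, at most 0.394 CPM in the other compound libraries and at 0.0931 CPM with IL4 alone. Stromal markers summed to 47.8 to 141 CPM against 123 CPM, lymphocyte markers to 5.09 to 8.85 CPM against 9.45 CPM, and dendritic markers to 8.36 to 15.1 CPM against 15.7 CPM. The mast cell and basophil list was highest with 25-HC (21.5 CPM) and PF429424 (14.6 CPM) and stood at 4.94 CPM with IL4 alone; Gata2 made up nearly all of it, while Cpa3 was at 0 in all but the fatostatin library and Ms4a2 never passed 0.0941 CPM. The part of these cell types in the values below was not tested. In bulk RNA, fewer cells of a type and less RNA per cell cannot be told apart.

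The 7 genes came from a small set. Ratios are the log2 of each compound library over the IL4 library, with 2 counts added to each side, and carry an exact 95% interval that covers counting error only. A gene counts as past the fold when its log2 ratio is at least 1 and that interval excludes 0. Of 11908 genes with at least 1 CPM in at least 1 library, 16 were past the fold upward in all 5 compound libraries, or 0.134%, and 28 were past it downward in all 5, or 0.235%. All 7 members are among the 16, as the rule fixes. The other 9 include Hilpda, a lipid droplet protein (smallest of its 5 log2 ratios 1.21), the chemokine gene Ccl7 (1.2), Rtn4r, the Nogo receptor (1.01), and Npas2, a circadian transcription factor (1.02), of which Hilpda and Ccl7 were named after their values were seen. Just inside the rule stood Rtn4r, Dusp13 (1.01), Npas2, Lims2 (1.06) and Gm27021 (1.07), and just outside it Hist1h4h (0.99), Pde10a (0.98), Zfp965 (0.97), Prkaa2 (0.97) and Jcad (0.97). Lims2 and Dusp13 thus sat at the edge, whereas Gprc5b (1.45) and Akap2 (1.30) were further inside. The 5 ratios share the IL4 library, which had 1 culture, so a deviation of that library and a change made by all 5 compounds cannot be told apart. No ratio has a replicate check, and none has a p-value.

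Past the fold upward, over all genes compared, were 0.873% with fatostatin, 1.92% with betulin, 3.30% with 25-HC, 2.50% with PF429424 and 7.71% with 1,10-Phen, beside which the 7 of 7 members in each comparison stand by construction. Past it downward were 1.04%, 2.24%, 5.68%, 5.60% and 11.8% of all genes in the same order of compounds, and by construction no member. The median log2 ratio of the members was 1.30 with fatostatin, 2.44 with betulin, 2.09 with 25-HC, 1.77 with PF429424 and 1.49 with 1,10-Phen. Medians of all genes compared lay between -0.01 and 0.02. The library with the most genes past the fold, 1,10-Phen, thus had the next to lowest median of the members. In that library 762 genes, Dio2 included, had a log2 ratio to IL4 alone at least as high as that of Dio2. In the 25-HC library there were 9 such genes, Dio2 included.

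**Figure D1:**
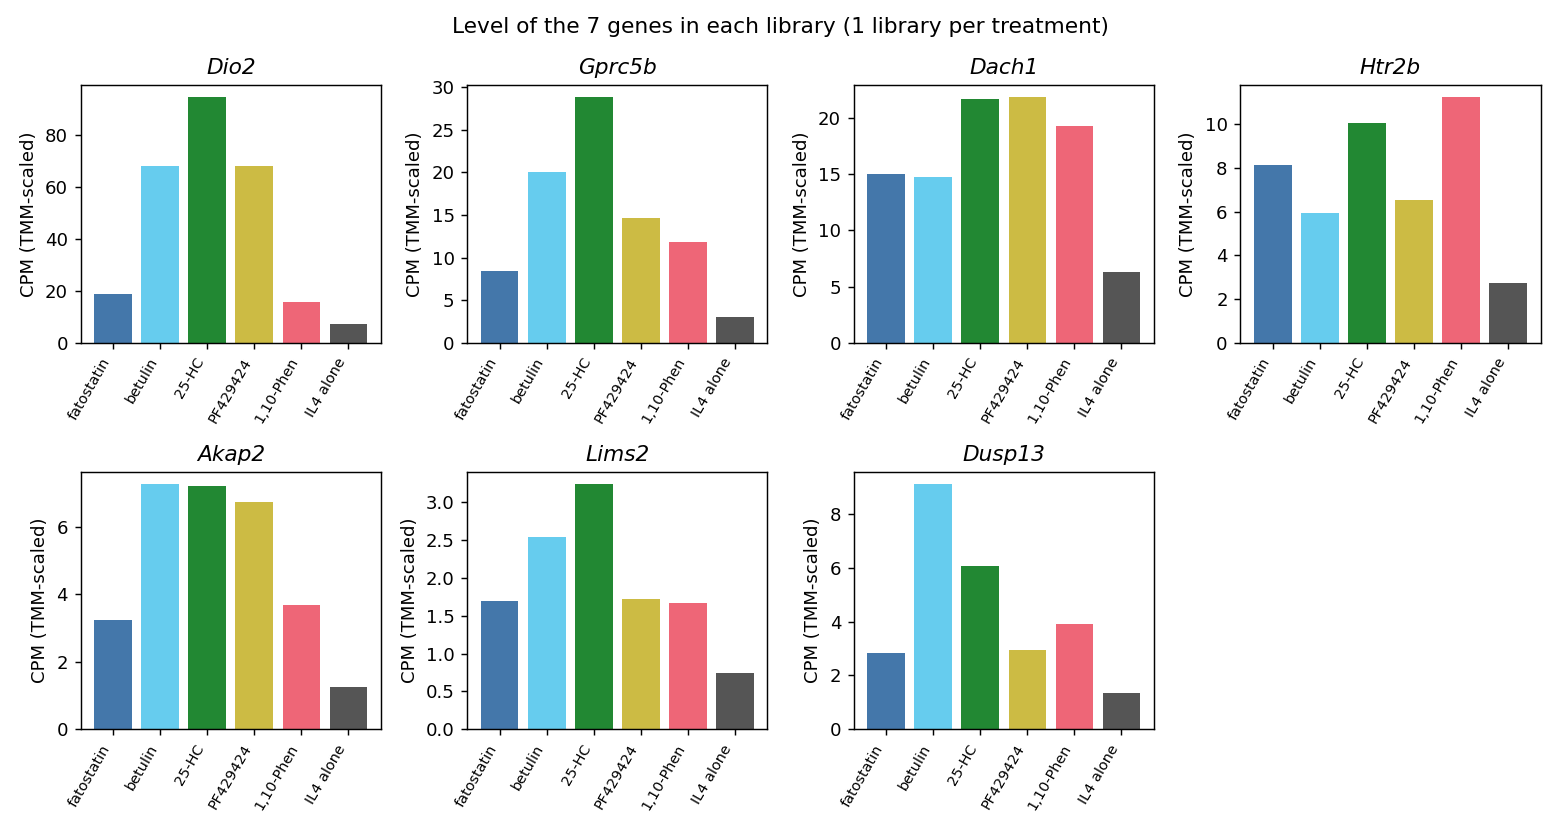
Each panel shows 1 gene, with the CPM (TMM-scaled, linear axis from 0) in the 5 compound libraries and, at the right, in the library of IL4 alone; each bar is 1 library, so there is no error bar. The IL4 bar is the lowest in all 7 panels because the genes were chosen that way. Dio2 reaches 94.4 CPM with 25-HC, and Lims2 never exceeds 3.23 CPM.

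Dio2, the deiodinase gene, had the widest range. Its level was 18.9 CPM with fatostatin, 67.9 CPM with betulin, 94.4 CPM with 25-HC, 67.8 CPM with PF429424 and 15.6 CPM with 1,10-Phen, against 7.17 CPM with IL4 alone. Betulin, 25-HC and PF429424 thus formed a high group and fatostatin and 1,10-Phen a low one. The IL4 library lay below both, as the rule fixes. The counts behind these levels were 402, 1447, 2073, 1378 and 292, in the same order of compounds, against 154. With 25-HC the log2 ratio to IL4 alone was 3.70 (interval 3.48 to 3.96), a 13.0-fold difference. It was 3.22 with betulin (3.0 to 3.49) and 3.22 with PF429424 (3.0 to 3.49), and these intervals did not overlap that of fatostatin at 1.39 (1.13 to 1.68). With 1,10-Phen it was 1.11 (0.84 to 1.42), and scaling by library totals took it to 0.88, below the fold. The gene lies on chromosome 12 at 90724552 to 90739038 (RefSeq, GRCm38), and its row in the tables holds a single RefSeq transcript. GENCODE M21 places the lncRNA Gm26512 on the other strand there, with overlapping exons, and the strand setting of the counting was not given in the sources used here.

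Gprc5b, the orphan receptor gene, followed a similar order at a lower level. It stood at 8.42 CPM with fatostatin, 20.1 CPM with betulin, 28.8 CPM with 25-HC, 14.7 CPM with PF429424 and 11.8 CPM with 1,10-Phen, against 3.03 CPM with IL4 alone. By the rule, no compound library came within a factor of 2 of the IL4 library. The closest, fatostatin, had a log2 ratio of 1.45 (interval 1.06 to 1.91). The ratio was 3.21 with 25-HC (2.88 to 3.64), 2.69 with betulin (2.35 to 3.13), 2.24 with PF429424 (1.89 to 2.69) and 1.93 with 1,10-Phen (1.56 to 2.39). Gprc5b spans 118972040 to 118995211 of chromosome 7. The gene Iqck overlaps it on the opposite strand, exons included, and had 7.12 counts with fatostatin, 11.1 with betulin, 30.3 with 25-HC, 17.1 with PF429424 and 7.02 with 1,10-Phen, against 4 with IL4 alone. Iqck was thus also highest with 25-HC, with far fewer counts than Gprc5b (633 with 25-HC), and without strand the reads of the overlapping part cannot be told apart.

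Htr2b, the serotonin receptor gene, had a different order, with 1,10-Phen on top. Levels were 8.14 CPM with fatostatin, 5.96 CPM with betulin, 10.1 CPM with 25-HC, 6.55 CPM with PF429424 and 11.2 CPM with 1,10-Phen, against 2.75 CPM with IL4 alone. Its log2 ratio was 1.996 with 1,10-Phen (interval 1.61 to 2.48), 1.84 with 25-HC (1.45 to 2.31), 1.53 with fatostatin (1.13 to 2.02), 1.22 with PF429424 (0.80 to 1.72) and 1.09 with betulin (0.66 to 1.59). Neighbouring values in that order had overlapping intervals. With 10 counts added in place of 2, the betulin ratio fell just short of 1 before rounding (0.996). The gene, on chromosome 1 at 86097546 to 86116231, lies on the strand opposite Psmd1, a proteasome subunit gene whose exons it overlaps. Psmd1 had 3220 to 3949 counts in the compound libraries and 3239 with IL4 alone, and its log2 ratios were 0.05 to 0.25. Htr2b itself had 127 to 221 counts in the compound libraries and 59 with IL4 alone, so its counts are small beside those of the gene it overlaps.

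Dach1, the Ski-related nuclear factor gene, varied least among the compounds. It reached 15.01 CPM with fatostatin, 14.7 CPM with betulin, 21.7 CPM with 25-HC, 21.9 CPM with PF429424 and 19.3 CPM with 1,10-Phen, against 6.33 CPM with IL4 alone. The log2 ratios ran only from 1.2 with betulin (interval 0.92 to 1.52) to 1.77 with PF429424 (1.51 to 2.07), a spread of 1.48-fold, where that of Dio2 was 6.00-fold. Dach1 covers 97786846 to 98169765 of chromosome 14 on the minus strand, while its row in the tables is labelled plus and lists 17 transcripts, of which 2 are RefSeq. Such a mismatch was found for 21.5% of the rows that hold transcripts from other sources than RefSeq and for 0.0207% of those with RefSeq transcripts only. Which transcripts of the Dach1 row the reads came from was not tested.

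Akap2, the gene of the kinase A anchoring protein, rests on how reads were divided. Its own entry held 3.25 CPM with fatostatin, 7.27 CPM with betulin, 7.19 CPM with 25-HC, 6.74 CPM with PF429424 and 3.70 CPM with 1,10-Phen, against 1.26 CPM with IL4 alone. Betulin, 25-HC and PF429424 were close together, with log2 ratios of 2.44, 2.43 and 2.34, and fatostatin (1.30) and 1,10-Phen (1.49) were lower. The tables also list Pakap, whose transcripts share exons with Akap2 on the same strand, and Palm2, the upstream gene that reads through into it. Pakap had 17.4 counts with fatostatin, 0 with betulin, 43.6 with 25-HC, 5.30 with PF429424 and 22.6 with 1,10-Phen, against 39.9 with IL4 alone. The share of the summed counts of the 3 entries that fell to Akap2 was 68.4% to 90.8% in the compound libraries and 36.5% with IL4 alone. When the 3 entries were added, a step chosen after seeing the data, the log2 ratio was 0.36 with fatostatin (interval -0.08 to 0.83), 1.23 with betulin (0.86 to 1.67), 1.44 with 25-HC (1.07 to 1.86), 1.07 with PF429424 (0.68 to 1.51) and 0.62 with 1,10-Phen (0.19 to 1.08). On the summed locus the gene was past the fold in 3 of the 5 libraries and would not meet the rule. The level of Akap2 as a separate gene is uncertain, since the current RefSeq entry joins all 3 into 1 gene; GENCODE M21 gives Akap2 itself 57717657 to 57896984 of chromosome 4.

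**Figure D2:**
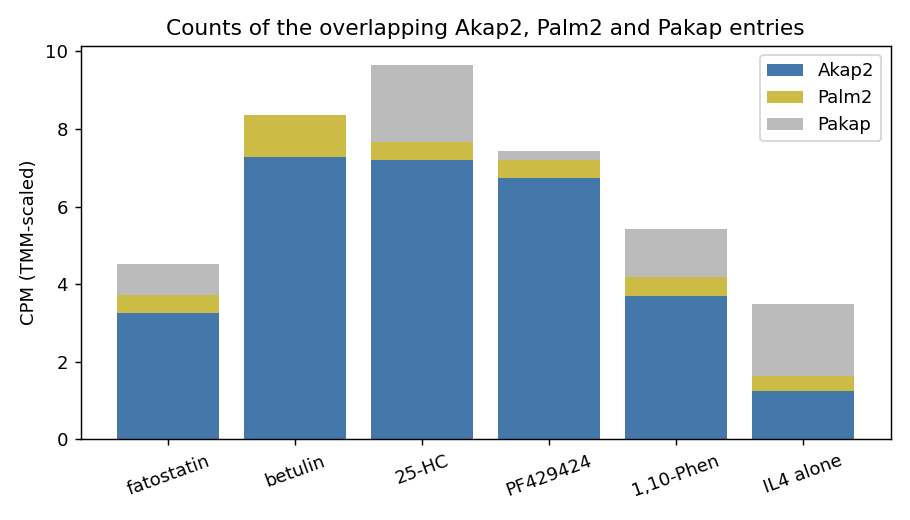
Stacked bars give the CPM (linear axis from 0) of the entries of Akap2, of Pakap, which shares exons with it, and of the upstream Palm2. The 5 compound libraries are followed, at the right, by IL4 alone, with 1 library per bar. Akap2 takes 36.5% of the summed counts with IL4 alone and at least 68.4% in each compound library, so the stacks differ less than the Akap2 segments do.

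Lims2, which encodes the adaptor PINCH2, was the least abundant of the 7. It had 1.69 CPM with fatostatin, 2.53 CPM with betulin, 3.23 CPM with 25-HC, 1.72 CPM with PF429424 and 1.66 CPM with 1,10-Phen, against 0.745 CPM with IL4 alone. These levels rest on 30.9 to 71 counts in the compound libraries and 16 with IL4 alone. Only the interval of 25-HC (1.98, 1.32 to 3.0) excluded a log2 ratio of 1, and those of the other 4 compounds included it. Fatostatin (1.09), PF429424 (1.11) and 1,10-Phen (1.06) were all at the edge of the rule, and each of these 3 fell below it when 10 counts were added in place of 2, at 0.83, 0.85 and 0.80. The receptor gene Gpr17, which overlaps Lims2 on the opposite strand of chromosome 18, had 0 to 3.09 counts in the compound libraries and 0 with IL4 alone.

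Dusp13, the phosphatase gene, was highest with betulin. It had 2.82 CPM with fatostatin, 9.10 CPM with betulin, 6.06 CPM with 25-HC, 2.95 CPM with PF429424 and 3.91 CPM with 1,10-Phen, against 1.35 CPM with IL4 alone. Betulin (log2 ratio 2.67, interval 2.18 to 3.37) and 25-HC (2.09, 1.58 to 2.80) stood above fatostatin (1.01, 0.40 to 1.76) and PF429424 (1.08, 0.47 to 1.82), with 1,10-Phen between them (1.47, 0.89 to 2.21). The fatostatin and PF429424 values came from 60 counts each against 29, and scaling by library totals took them to 0.96 and 0.95. Skeletal muscle markers stayed under 1 CPM in total in every library, as given above. The gene occupies 21733395 to 21748651 of chromosome 14 on the minus strand, and its row, labelled plus, lists 9 transcripts, 6 of them RefSeq. The antisense RNA Gm15935, which overlaps its exons, was not analysed here. Samd8, on the opposite strand with no shared exon, had 2228 to 4084 counts in the compound libraries and 1639 with IL4 alone, with log2 ratios between 0.46 and 1.28.

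**Figure D3:**
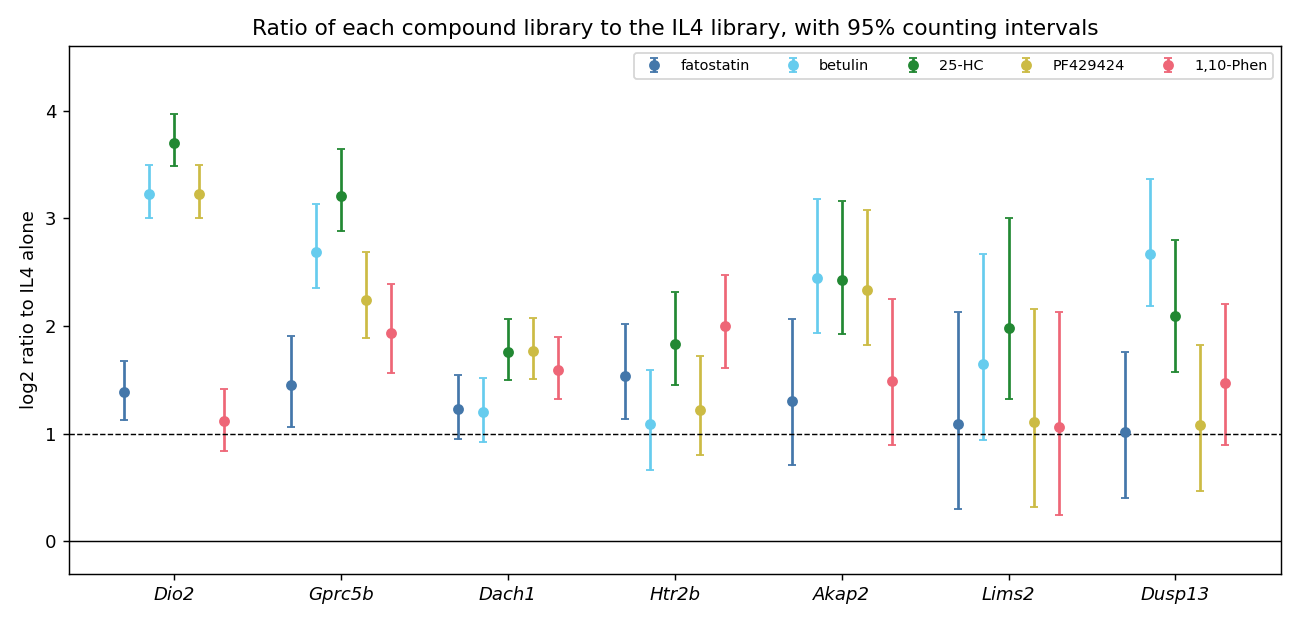
Points are log2 ratios of each compound library to IL4 alone for the 7 genes, with 95% counting intervals as bars; the solid line is no difference and the dashed line the 2-fold limit of the rule. All 35 points lie above the dashed line because the genes were chosen that way, and the spread between compounds is widest for Dio2 and narrowest for Dach1.

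Per transcript length, on the FPKM scale of the deposited tables, the range of the 7 genes was narrowest with IL4 alone. The rule favours this, since it chose genes that were low in that library, so the narrow range is a description only. With 25-HC they ran from 1.11 FPKM (Akap2) to 15.1 FPKM (Dio2), with a median of 4.54 FPKM. With fatostatin they ran from 0.49 to 3.77 FPKM, the highest being Htr2b, and with IL4 alone from 0.20 to 1.25 FPKM, with Dach1 (1.25 FPKM), Htr2b (1.22 FPKM) and Dio2 (1.18 FPKM) at the top. The FPKM ratio to IL4 alone was below 2 for Dio2 and Lims2 with 1,10-Phen (1.84 and 1.89) and for Dusp13 with fatostatin and PF429424 (1.88 and 1.77).

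The order among the compounds did not use the IL4 library, although the compound counts themselves entered the rule. At unknown doses these are comparisons of libraries. 25-HC ranked first or next to first among the 5 compound libraries for 7 of 7 genes and betulin for 5, whereas fatostatin was among the lowest 2 for 6 genes and 1,10-Phen for 4. The same ranks were not computed over all genes or over the other genes raised by all 5 compounds. Whether this order is particular to the 7 genes was therefore not tested. Of 10 pairs of compound libraries, 25-HC over fatostatin and betulin over fatostatin each had 4 of 7 members past the fold upward, beside 2.44% and 1.17% of all genes upward, and none downward, beside 4.72% and 1.82%. The 4 were Dio2, Gprc5b, Akap2 and Dusp13 in both pairs. Dusp13 over fatostatin was at 1.08 with 25-HC, and at 0.98 with 10 counts added in place of 2. PF429424 over fatostatin had 2, Dio2 at 1.84 and Akap2 at 1.03, beside 1.44% of all genes upward, and none downward, beside 3.83%. The Akap2 calls rest on its separate entry: with Palm2 and Pakap added, the log2 ratio to fatostatin was 1.07 with 25-HC, 0.87 with betulin (interval 0.52 to 1.26) and 0.71 with PF429424 (0.34 to 1.10), so that the last 2 were no longer past the fold. Library totals also took the PF429424 value below it, to 0.95. For 1,10-Phen over fatostatin no member was past the fold in either direction, beside 7.42% of all genes upward and 11.8% downward, and the log2 ratios ran from -0.27 (Dio2, interval -0.50 to -0.05) to 0.49 (Gprc5b, 0.20 to 0.78).

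Dio2 separated the compounds most sharply. It was lower with 1,10-Phen than with 25-HC by a log2 ratio of -2.59 (interval -2.78 to -2.42), and by -2.11 against both PF429424 and betulin. PF429424 and betulin did not differ in Dio2 beyond counting error, at 0.00 (interval -0.11 to 0.11). With 25-HC Dio2 was above betulin by 0.48 (0.38 to 0.57), beyond counting error but under 2-fold. Dusp13 was lower with PF429424 than with betulin and 25-HC, with -1.59 against betulin (interval -2.07 to -1.2) and -1.01 against 25-HC (-1.5 to -0.59). PF429424 over fatostatin was 0.06 (-0.48 to 0.61) and 1,10-Phen over PF429424 was 0.39, with an interval that included 0. With 10 counts added in place of 2 the difference of PF429424 from 25-HC was -0.93, under the fold. The values against betulin and 25-HC are those of the only member past the fold in these pairs, beside 2.41% and 1.88% of all genes downward, and none was past it upward, beside 0.999% and 1.79%. Betulin and 25-HC, both high for most members, had none past the fold between them, beside 1.21% of all genes upward and 2.41% downward; 25-HC was above betulin for Htr2b (0.75) and Dach1 (0.55) and below it for Dusp13 (-0.58). 1,10-Phen had 2 members past the fold downward against 25-HC (Dio2 and Gprc5b, beside 9.04% of all genes), 2 against betulin (Dio2 and Dusp13, beside 11.0%) and 1 against PF429424 (Dio2, beside 9.51%). None was past it upward in these pairs, beside 7.43% of all genes over 25-HC, 7.10% over betulin and 7.78% over PF429424.

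**Figure D4:**
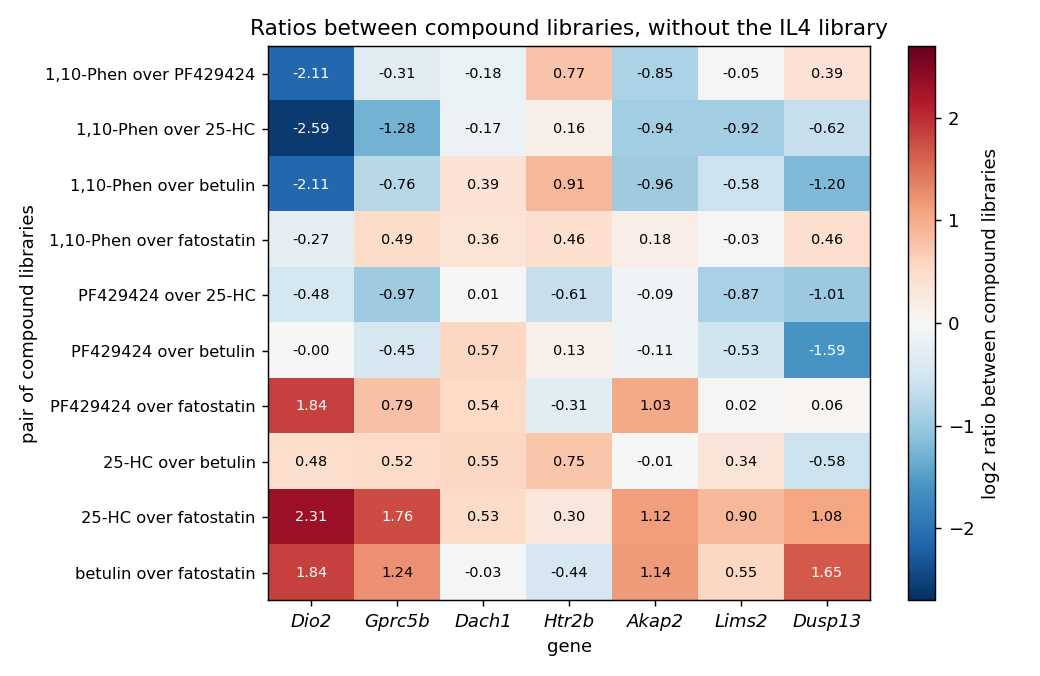
Each cell gives the log2 ratio of 1 gene between 2 compound libraries, for the 10 pairs (rows) and 7 genes (columns), with red for a positive and blue for a negative value. Dio2 runs from -2.59 (1,10-Phen over 25-HC) to 2.31 (25-HC over fatostatin), while Dach1, Htr2b and Lims2 stay within 1 in every pair.

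Lists of genes that work with each member, the members left out, held between 2 and 18 compared genes. Those past the fold in at least 1 compound library were 6 of 16 in the thyroid hormone list, 1 of 2 in the Gprc5 family, 3 of 7 in the list of Six4, Eya and Ski relatives, 1 of 4 in the serotonin list, 3 of 16 in the kinase A list, 2 of 12 around integrin-linked kinase, 8 of 18 dual-specificity phosphatases and 9 of 17 cAMP-responsive genes. The share of all genes past the fold in at least 1 library was not computed, so these counts have no value to set beside them. With 1,10-Phen alone the share was 7.71% upward and 11.8% downward. In each count below, given in the order fatostatin, betulin, 25-HC, PF429424 and 1,10-Phen, the shares of all genes to set beside it are 0.873%, 1.92%, 3.30%, 2.50% and 7.71% upward and 1.04%, 2.24%, 5.68%, 5.60% and 11.8% downward. In the thyroid hormone list of 16 compared genes, 1 was past the fold upward with fatostatin, 0 with betulin, 1 with 25-HC, 1 with PF429424 and 3 with 1,10-Phen. Downward there was 1 each with betulin, 25-HC and PF429424 and 0 with fatostatin and 1,10-Phen. Slc7a5, an amino acid and thyroid hormone transporter, had 2.05 with PF429424, 1.65 with 1,10-Phen and 1.54 with 25-HC, and its partner chain Slc3a2 had 1.26 with 1,10-Phen. The corepressor gene Hr, a known thyroid hormone target in rat brain, was at -1.65 with betulin and -1.55 with PF429424, and the receptor gene Thrb at 1.08 with fatostatin. Median log2 ratios of the list were 0.03 to 0.17, against -0.01 to 0.02 for all genes.

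Of the receptors' relatives, Gprc5c was at 1.77 with 1,10-Phen and Gprc5a was the other compared member of its family, with none past the fold in the other 4 libraries. The serotonin list had 4 compared genes beside Htr2b, and 1 was past the fold, Slc18a1, a vesicular monoamine transporter, at 1.30 with 25-HC and 1.11 with betulin. Htr2a was at 0.16 to 0.82. Among the 7 compared genes of the Six4, Eya and Ski families, 2 were past the fold upward with fatostatin (0.873% of all genes), 0 with betulin, 1 with 25-HC (3.30%), 2 with PF429424 (2.50%) and 0 with 1,10-Phen, and 1 downward with 1,10-Phen (11.8%). Six4 had 2.52 with 25-HC and 1.13 with PF429424, Eya1 had 1.04 with PF429424 and 1.01 with fatostatin, and Six5 had 1.14 with fatostatin and -1.58 with 1,10-Phen.

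The kinase A list of 16 genes had none past the fold with fatostatin, betulin or PF429424, 2 downward with 25-HC and 3 upward with 1,10-Phen, beside 5.68% and 7.71% of all genes. Prkar2b, a regulatory subunit, was at 2.82 with 1,10-Phen and -1.08 with 25-HC, the anchoring gene Akap7 at 1.29 and -1.68, and Akap6 at 1.48 with 1,10-Phen. Of 12 genes around integrin-linked kinase, Fermt2, a kindlin, was at -1.21 with betulin and 1.31 with 1,10-Phen, and the adhesion gene Vcl at -1.11 with 1,10-Phen, with none past the fold with fatostatin, 25-HC or PF429424.

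Of the dual-specificity phosphatases 0 of 18 were past the fold upward with fatostatin, 4 with betulin, 6 with 25-HC, 1 with PF429424 and 3 with 1,10-Phen, beside 0.873%, 1.92%, 3.30%, 2.50% and 7.71% of all genes. Downward there was 1, with 1,10-Phen. Their medians were of 0.14, 0.44, 0.53, 0.33 and 0.12 in that order of compounds. Dusp10 had 2.13 with 25-HC and 2.03 with betulin, Dusp1 had 2.08 with 25-HC, 2.06 with 1,10-Phen and 1.13 with betulin, and Dusp8 had 1.85 with 25-HC, all 3 being phosphatases of MAP kinases. Dusp2, another of them, was at -1.70 with 1,10-Phen. The list of 17 cAMP-responsive genes had 0 past the fold upward with fatostatin, 2 with betulin, 3 with 25-HC, 0 with PF429424 and 4 with 1,10-Phen, and 0, 0, 1, 1 and 5 downward. Its medians were 0.26, -0.02, 0.01, -0.17 and 0.29. Dusp1, with the upward values given above, was also in this list and is counted in both. Thbs1, a matrix glycoprotein, was at -2.17 with PF429424 and -1.71 with 25-HC, Nr4a1, an orphan nuclear receptor, at -1.75 with 1,10-Phen, and Rgs2, a G protein regulator, at 1.26 with 25-HC and -1.60 with 1,10-Phen. The 3 libraries in which Dio2 was highest, betulin, 25-HC and PF429424, had 2, 3 and 0 genes of this list past the fold upward. Beside these stand 1.92%, 3.30% and 2.50% of all genes. Downward there were 0, 1 and 1, beside 2.24%, 5.68% and 5.60%. A part of cAMP signalling in the Dio2 levels was not tested.

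The genes with the most similar profiles were found by the root mean square difference of log2 CPM over the 6 libraries, each gene centred on its own mean, among genes outside the 7 that reached 5 CPM in at least 1 library. Dach1 had the closest such neighbour, Hbegf, a growth factor of the EGF family, at 0.16. For Gprc5b these were Ifrd1 (0.30), Rtn4r (0.33) and Plcxd2 (0.48), and for Akap2 Bhlhe41 (0.33), Ifrd1 (0.37) and Ttll11 (0.41). Htr2b was nearest to Arhgap28 (0.28), Fignl2 (0.29) and the phosphatase gene Dusp4 (0.29), and Lims2 to Lhfpl2 (0.21), the lipid droplet gene Plin2 (0.22) and Fam83f (0.23). Dusp13 lay nearest to Rhov (0.29), the chemokine gene Cxcl2 (0.30) and Ankrd33b (0.34). The nearest to Dio2 were further off, Cd200, Rgs1 and Dok7 at 0.55, 0.55 and 0.60, and their log2 ratios with 1,10-Phen were -0.11, -0.04 and -0.85, where that of Dio2 was 1.11. Among the members themselves Gprc5b and Akap2 were the closest pair (0.29), followed by Dach1 and Htr2b (0.31), and Dio2 and Htr2b the furthest apart (1.21). All Akap2 distances, to neighbours and to members, rest on its separate entry. They were not computed for the locus summed with Palm2 and Pakap, whose ratios differ, so the place of Akap2 in the closest pair is uncertain.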

How the data were processed

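The authors deposited, per the file headers, a read count for each gene, which is an estimated count (30.5% to 32.0% are fractional) not scaled across libraries. FPKM values stand beside it as deposited. RSEM 1.2.12, HISAT2, Bowtie2 and DESeq2 are listed in the submitters' processing notes, with no roles, and the strand setting was not given in the sources used here. Chromosome accessions in the tables are those of GRCm38.

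Counts were rounded, and edgeR 4.0.16 (R 4.3.3) computed TMM factors. CPM and log2 ratios to the IL4 library used a prior count of 2, the filter was 1 CPM in at least 1 library, and exact Clopper-Pearson 95% intervals cover counting error only. With 1 library per treatment no test was run. Partner genes named are at most the 4 of each list with the largest ratio past the fold, and similar genes the nearest 3; Htr2a, Gprc5a, Hilpda, Ccl7 and the overlapping genes were named outside that rule. The members and lists were chosen with earlier results of these data known. Alternatives were library totals, size factors of DESeq2 1.42.0, no filter, 5 CPM, prior counts of 0.5 and 10, log2(FPKM + 1) and the median of the 6 libraries as the denominator. Python 3.11.15, pandas 2.3.3 and SciPy 1.17.1 were used otherwise.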

Additional observations from a re-analysis of the deposited data

Results flagged for a closer look

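Genes of the partner lists that were past the 2-fold limit upward in 1 compound library and downward in another are given here as differences of their log2 ratios to IL4 alone, each from 1 library per compound, so the difference was not tested. For Six5 fatostatin minus 1,10-Phen was 2.72, and for Rgs2 25-HC minus 1,10-Phen was 2.86. Fermt2 differed by 2.52 for 1,10-Phen minus betulin. The difference 1,10-Phen minus 25-HC was 2.97 for Akap7 and 3.90 for Prkar2b.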

How the results depend on the processing

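Of the 35 log2 ratios of members to IL4 alone, all 35 were past the fold with DESeq2 size factors, no filter or a prior count of 0.5, 30 with library totals, 29 with a prior count of 10 and 14 with log2(FPKM + 1); with 5 CPM as the filter 30 remained to be counted, since Lims2 was left out. No ratio of a member to IL4 alone changed sign under these 7 settings. The genes were chosen for log2 ratios of at least 1 and the settings reuse the same counts, so the unchanged sign supports nothing. The number of genes past the fold upward in all 5 libraries was 16, and 9 with library totals, 10 with 5 CPM, 7 with a prior count of 10 and 2 with log2(FPKM + 1). With the median of the 6 libraries as the denominator it was 0 by construction, since 5 of 6 libraries cannot all lie above their own median. That 0 therefore says nothing about the genes. Library totals moved the median of all genes by -0.14 with PF429424 and -0.24 with 1,10-Phen, took the genes past the fold to 216 higher and 871 lower with PF429424, where TMM gave 298 and 667, and to 641 higher and 1940 lower with 1,10-Phen, where TMM gave 918 and 1401.

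With log2(FPKM + 1) the members past the fold numbered 1 with fatostatin, 3 with betulin, 6 with 25-HC, 3 with PF429424 and 1 with 1,10-Phen. The share of all genes past the fold on that scale was not computed. The median of the members was 0.76 with fatostatin, 0.79 with betulin, 1.39 with 25-HC, 0.80 with PF429424 and 0.74 with 1,10-Phen. A pseudocount of 1 is about as large as the FPKM of these genes with IL4 alone. With the median of the 6 libraries as the denominator, which the compound libraries themselves set, no interval was applied. The members with a log2 ratio of at least 1 then numbered 0 with fatostatin, 1 with betulin, 2 with 25-HC, 0 with PF429424 and 0 with 1,10-Phen. The share of all genes at that limit was not computed. The medians of the members were -0.26, 0.54, 0.82, 0.15 and -0.039 in that order. Adding Palm2 and Pakap to Akap2, chosen after seeing the data, left 6 members past the fold with fatostatin and with 1,10-Phen. No paired analysis was possible because each group had 1 library. Depth limits Lims2 most, with 16 counts in the IL4 library.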
